A study of Mus musculus with 6 samples.

Results

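The enzymes and helpers that turn newly made procollagen into cross-linked fibrils were examined in newborn mouse parietal bone, a flat bone of the calvaria, from mice with a conditional *Stat3* deletion in the osteoblast lineage and from their controls. The group was set by name as 10 genes, *P4ha1*, *P4ha2*, *Plod1*, *Plod2*, *Plod3*, *Lox*, *Loxl2*, *Serpinh1*, *Crtap* and *Bmp1*. All 10 were listed among the 44556 gene symbols of the count tables, and 9 had enough counts to be tested. Bulk RNA-seq had been carried out on 3 OsxCre and 3 OsxCre;Stat3fl/fl libraries from C57BL/6 newborns, which the labels describe as littermates. OsxCre mice carry Cre recombinase under the *Osx* promoter, which is active mainly in osteoblast precursors, and both genotypes carry it. In OsxCre;Stat3fl/fl mice both *Stat3* alleles are also floxed, so by design *Stat3* is lost in the *Osx* lineage and kept in the other cells of the bone. In such bulk samples, fewer cells of a type and less RNA per cell cannot be told apart.

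Fibrillar collagens are made as procollagen chains in the endoplasmic reticulum, where prolyl hydroxylases stabilize the triple helix and lysyl hydroxylases prepare the lysines that will later be glycosylated or cross-linked. A collagen-specific chaperone holds the folded helix until it leaves the compartment. Outside the cell, proteinases cut off the propeptides, and lysyl oxidases then oxidize lysine and hydroxylysine so that neighbouring molecules become covalently linked. Bone matrix is largely type I collagen, and inherited defects in several of these genes, among them *CRTAP*, *SERPINH1*, *BMP1* and *PLOD2*, cause brittle bone disease in humans.

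The counts on genes summed to between 8193651 and 12080044 per library, and every OsxCre;Stat3fl/fl library was smaller than every OsxCre library. *Stat3* itself had 150, 135 and 141 CPM (counts scaled to library size, with the sizes adjusted by edgeR's TMM method) in OsxCre libraries 1, 2 and 3 and 153, 155 and 155 CPM in OsxCre;Stat3fl/fl libraries 1, 2 and 3. The count of the targeted gene was therefore not lower in the OsxCre;Stat3fl/fl libraries (log2 fold change 0.12, edgeR adjusted p = 0.442). The loxP sites flank only some *Stat3* exons, and a count per gene can include reads of kept exons and of cells outside the *Osx* lineage. The part of either was not tested. In these libraries the genotype rests on the labels. The study reports STAT3 protein loss by western blotting in cultured bone marrow stem cells of OsxCre;Stat3fl/fl mice. It also lists *Stat3* among the mRNA levels measured in such cultured cells, for which its text gives no value. The study describes male newborns, whereas the Y-linked *Ddx3y* and *Kdm5d* had 0 counts and *Xist*, the RNA that silences one X in female cells, had between 881 and 1059 CPM in the 6 libraries. Over all 15600 genes tested, 75 were lower and 121 higher in OsxCre;Stat3fl/fl at an adjusted p under 0.05. With library totals in place of TMM these numbers were 114 and 112, and without any scaling they were 5451 and 121, with a median log2 fold change over all genes of -0.38 in place of 0.00.

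None of the 9 tested collagen enzymes passed an adjusted p of 0.05 in edgeR, a line that 1.26% of all genes passed (0.481% lower and 0.776% higher). The changes that came closest pointed in different directions along the pathway. *Serpinh1*, the collagen chaperone, and *Bmp1*, the C-propeptidase, were lower in OsxCre;Stat3fl/fl, with log2 fold changes of -0.50 and -0.33, while *Lox*, the cross-linking oxidase, was higher at 0.33. These 3 genes had an unadjusted p under 0.05, which 16.4% of all genes reached (8.34% lower and 8.03% higher). The 5 prolyl and lysyl hydroxylases and *Crtap* had log2 fold changes between -0.18 and 0.15. The median of the 9 was -0.03, beside 0.00 over all genes tested. With DESeq2's Wald test, *Serpinh1* (adjusted p = 0.000314) and *Bmp1* (adjusted p = 0.0476) were called lower, in a fit that called 3.46% of all genes in either direction and 1.51% lower. With limma-voom, 0 of the 9 were called. Counts left unscaled for library size called 4 of the 9 lower, in a fit that called 35.7% of all genes.

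Levels of different genes were compared as CPM per kilobase of exon, using the exon lengths of the GENCODE annotation of mm9. The length merges the exons of all transcripts of a gene, and the annotation behind the counts is not known. The order depends on this choice. In CPM alone, the OsxCre mean was higher for *Plod1* (162) than for *P4ha1* (114). *Serpinh1* stood highest by this measure, with 595 ± 54.5 CPM per kb (SD, n = 3) in the OsxCre libraries. *Bmp1*, *Crtap* and *Lox* formed a second tier, with 127 ± 11.9, 114 ± 9.66 and 89.1 ± 6.48 CPM per kb. The prolyl hydroxylase *P4ha1* had 27.8 ± 3.25, *Plod1* 24.0 ± 0.497, *Plod2* 18.2 ± 2.09, *P4ha2* 12.5 ± 3.05 and *Plod3* 9.40 ± 1.4 CPM per kb. Among neighbours in this order, the OsxCre ranges overlapped for *Bmp1* with *Crtap* and for *P4ha2* with *Plod3*, and the other neighbours did not overlap. In the OsxCre;Stat3fl/fl libraries the second tier had the reverse order, with 112 ± 15.7 CPM per kb for *Lox*, 111 ± 6.42 for *Crtap* and 101 ± 7.55 for *Bmp1*, and neighbouring ranges overlapped. The substrates *Col1a1* and *Col1a2* had 1989 ± 325 and 1132 ± 148 CPM per kb in the OsxCre libraries, above each of the enzymes.

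**Figure D1:**
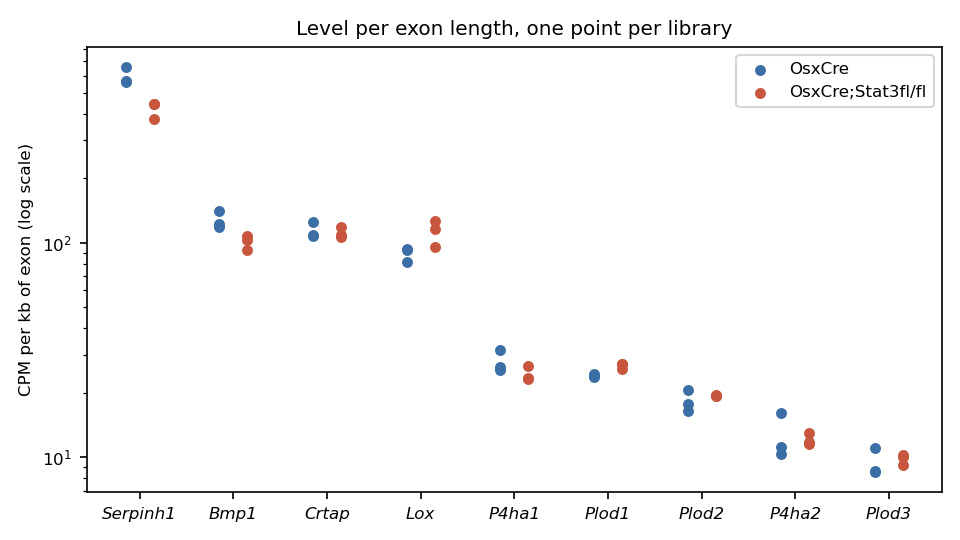
Level of the 9 tested genes as CPM per kb of exon on a log axis, with one point per library, blue for OsxCre and red for OsxCre;Stat3fl/fl. *Serpinh1* lies above all others in every library, and *Bmp1*, *Crtap* and *Lox* lie together between 81.7 and 141 CPM per kb.

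*Loxl2*, a lysyl oxidase family member, was close to absent from the counts. It had 3, 0 and 1 counts in the OsxCre libraries and 2, 0 and 2 counts in the OsxCre;Stat3fl/fl libraries. All 6 values were at or under the floor of 3 counts, which corresponds to between 0.252 and 0.368 CPM, so no fold change is given. The floor covers counting error only, and a level under it was not detectable at this depth. The gene lies on chromosome 14 of GRCm38.p6 from 69608692 to 69695834 and overlaps a non-coding gene on the other strand.

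The start regions of the enzymes were read from RefSeq (GRCm38.p6), whose table held a window for 6 of the 10 genes, reaching from 250 bases before to 50 bases after an annotated start. Windows for *Plod2*, *Lox*, *Loxl2* and *Bmp1* were not used here. The start used for *P4ha1* lies inside the RefSeq span of the gene, which begins at 59323197 on chromosome 10. Its match printed below lies within that span. The STAT motif TTCNNNGAA was found in 0 of the 6 windows, on either strand, against 8.3% of all 32851 windows. The heat shock motif GAANNTTC was found in the *Plod1* window alone, against 7.86% of all windows. Its longer form with 3 units was found in 0 of 6 against 0.603%, and the endoplasmic reticulum stress element ERSE in 0 of 6 against 0.119%. The core of the hypoxia response motif, ACGTG, was found in 4 of the 6, against 19.6% of all windows. These windows were not matched for G or C content, and enrichment was not tested. The 4 windows held 5 matches, 2 of them in *P4ha2*, and these are shown because *P4ha1* and *P4ha2* are textbook hypoxia-inducible enzymes and *Serpinh1* has the lowest log2 fold change of the 9 genes. Each is printed on the strand of its gene with 10 bases on either side, and capitals mark ACGTG or its reverse complement CACGT.
*Serpinh1*, chr7:99353396-99353420, minus strand, motif at -171 to -167 from the start: cctgcttttcCACGTccaggaccgc
*P4ha1*, chr10:59323270-59323294, plus strand, motif at -16 to -12: tgacagagcgCACGTagcgagggct
*P4ha2*, chr11:54100836-54100860, plus strand, motif at -78 to -74: tgcatcgcatACGTGcagcgcgtgg
*P4ha2*, chr11:54100924-54100948, plus strand, motif at 11 to 15: ggaggtggggACGTGgcggaggctc
*Plod3*, chr5:136986955-136986979, plus strand, motif at -54 to -50: tgaagtcattACGTGatgttccctt
The 250 bases before the start were between 53.6% and 70% G or C in the 6 genes. For *Serpinh1*, the gene with the lowest p among the 9, these bases are chr7:99353240-99353489, with the same match in capitals.
*Serpinh1* upstream: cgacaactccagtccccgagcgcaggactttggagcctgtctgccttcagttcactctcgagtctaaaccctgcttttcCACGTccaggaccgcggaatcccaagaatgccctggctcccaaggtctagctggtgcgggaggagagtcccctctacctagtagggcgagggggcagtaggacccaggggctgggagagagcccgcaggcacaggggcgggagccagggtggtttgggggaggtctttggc
A match to these letters is a description of the window and not a binding site.

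Prolyl 4-hydroxylase consists of an alpha subunit, which holds the catalytic site and is encoded by *P4ha1* or *P4ha2* among others, and of a beta subunit, the protein disulfide isomerase encoded by *P4hb*. *P4ha1* had 130, 108 and 105 CPM in the OsxCre libraries and 96.8, 110 and 95.5 CPM in the OsxCre;Stat3fl/fl libraries. OsxCre library 1 was the highest of the 6, and OsxCre;Stat3fl/fl library 2 lay above OsxCre libraries 2 and 3, so the genotypes overlapped. The log2 fold change was -0.18 (95% interval -0.42 to 0.06, adjusted p = 0.432 from edgeR). *P4ha2* had 100, 64.8 and 69.9 CPM in OsxCre and 71.9, 81.0 and 73.8 CPM in OsxCre;Stat3fl/fl, where OsxCre library 1 again stood above the rest and the OsxCre coefficient of variation was 24.3%, the largest of the 9 genes. Its log2 fold change was -0.05 (95% interval -0.42 to 0.32, adjusted p = 0.92), and it became 0.17 without OsxCre library 1.

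*Crtap* encodes the cartilage-associated protein, which works with prolyl 3-hydroxylase 1 and cyclophilin B on a single proline of the collagen I chain. It had 222, 191 and 194 CPM in OsxCre and 194, 210 and 189 CPM in OsxCre;Stat3fl/fl, and the ranges overlapped almost wholly. The log2 fold change was -0.03 (95% interval -0.24 to 0.17, adjusted p = 0.904), which leaves room for a level between 0.849 and 1.13 times that of OsxCre. Its locus overlaps a non-coding gene on the other strand in the GENCODE annotation, and the strand setting of the counting is not stated.

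The 3 lysyl hydroxylases differ in the lysines they modify. *Plod1* encodes the enzyme for lysines of the triple helix, *Plod2* the one for lysines of the telopeptides that enter cross-links, and *Plod3* an enzyme that also adds sugars to hydroxylysine. *Plod1* had 162, 159 and 166 CPM in OsxCre and 174, 184 and 183 CPM in OsxCre;Stat3fl/fl. Every OsxCre;Stat3fl/fl value lay above every OsxCre value, by a small margin, and the coefficient of variation was 2.07% in OsxCre and 2.92% in OsxCre;Stat3fl/fl. The log2 fold change was 0.15 (95% interval -0.0023 to 0.30, adjusted p = 0.311).

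*Plod2* had 85.8, 68.8 and 73.9 CPM in OsxCre and 80.5, 81.9 and 80.7 CPM in OsxCre;Stat3fl/fl. The OsxCre;Stat3fl/fl values were nearly equal to each other and lay within the OsxCre range (log2 fold change 0.09, 95% interval -0.13 to 0.30, adjusted p = 0.694 from edgeR). *Plod3* had 49.8, 39.2 and 38.5 CPM in OsxCre and 46.5, 41.7 and 45.4 CPM in OsxCre;Stat3fl/fl, again within the OsxCre range (log2 fold change 0.07, 95% interval -0.20 to 0.34, adjusted p = 0.831 from edgeR). The span of *Plod3* overlaps *Znhit1* on the other strand, which had between 211 and 338 counts per library against 340 to 523 for *Plod3*. Isoforms of *Plod2* are not told apart in counts per gene.

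*Serpinh1*, on chromosome 7 of GRCm38.p6 from 99345375 to 99353239, encodes HSP47, the chaperone that binds the procollagen triple helix. It had 1602, 1384 and 1362 CPM in the OsxCre libraries and 1082, 1076 and 917 CPM in the OsxCre;Stat3fl/fl libraries. Every OsxCre;Stat3fl/fl value was below every OsxCre value, and the gap between the closest values, 1362 and 1082 CPM, was larger than the spread within OsxCre;Stat3fl/fl. The means were 1449 ± 133 and 1025 ± 93.6 CPM (SD, n = 3), a level 0.707 times that of OsxCre (95% interval 0.589 to 0.849). On the log2 scale the difference was -0.50 (standard error 0.11), with an adjusted p of 0.0877 from edgeR, between 0.000314 and 0.481 over the alternatives, and its CPM values had an exact permutation p of 0.1 (two-sided), the smallest that 3 against 3 allows. With any one library left out, the log2 fold change lay between -0.54 and -0.42 and the adjusted p from edgeR between 0.129 and 0.241.

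*Bmp1*, on chromosome 14 from 70474555 to 70520716, encodes the metalloproteinase that removes the C-propeptide of fibrillar procollagens and also activates prolysyl oxidase, and longer tolloid forms arise from the same gene. It had 586, 493 and 510 CPM in OsxCre and 447, 429 and 386 CPM in OsxCre;Stat3fl/fl. The genotypes did not overlap, and OsxCre library 1 was the highest, as for *Serpinh1*. The means were 530 ± 49.6 and 421 ± 31.4 CPM (SD, n = 3), a level 0.794 times that of OsxCre (95% interval 0.675 to 0.936). On the log2 scale the difference was -0.33 (standard error 0.10), where edgeR gave an adjusted p of 0.167 and the alternatives gave 0.0106 to 0.538. It lay between -0.38 and -0.25 when one library was left out.

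*Lox* encodes lysyl oxidase, the secreted copper enzyme that starts covalent cross-linking. It had 433, 384 and 439 CPM in OsxCre and 447, 544 and 592 CPM in OsxCre;Stat3fl/fl. The genotypes did not overlap, although OsxCre;Stat3fl/fl library 1, at 447 CPM, was close to OsxCre library 3. The means were 419 ± 30.4 and 528 ± 73.7 CPM (SD, n = 3), a level 1.26 times that of OsxCre (95% interval 1.04 to 1.53). On the log2 scale the difference was 0.33 (standard error 0.12), where edgeR gave an adjusted p of 0.223 and the alternatives gave 0.102 to 0.824. It lay between 0.25 and 0.44 when one library was left out. In unscaled counts it was -0.046, which lies above the median of all genes in that fit.

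**Figure D2:**
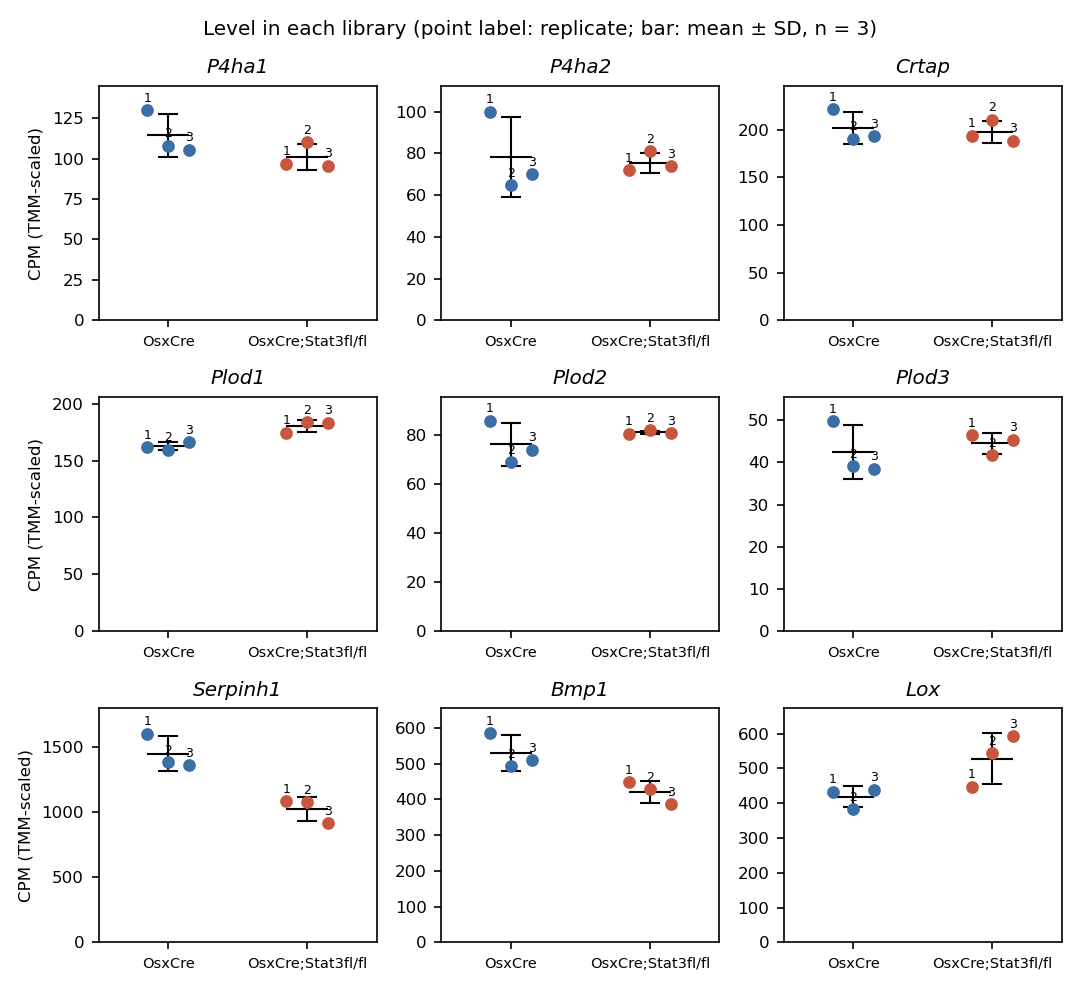
TMM-scaled CPM of the 9 tested genes in each library, with the replicate number beside each point and the mean ± SD of 3 libraries as bars, axes starting at 0. *Serpinh1* and *Bmp1* are lower and *Plod1* and *Lox* higher in OsxCre;Stat3fl/fl without overlap, and the other 5 genes overlap between genotypes.

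The genotypes did not overlap for 4 of the 9 genes, lower for *Serpinh1* and *Bmp1* and higher for *Plod1* and *Lox*. Over all genes tested, 23% did not overlap. OsxCre library 1 had the highest OsxCre value for 7 of the 9 genes, all but *Plod1* and *Lox*, and it was also the OsxCre library with the most *Col1a1* and *Col1a2*. Without that library 7 of the 9 genes did not overlap, since *P4ha2*, *Plod2* and *Plod3* then stood higher in OsxCre;Stat3fl/fl, and 31.3% of all genes did not overlap.

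Some cell type markers differed between genotypes in the same libraries. The summed level of 8 osteoblast markers was between 1567 and 1759 CPM in OsxCre and between 1140 and 1221 CPM in OsxCre;Stat3fl/fl. Of these 8, 7 had a negative log2 fold change, and *Ibsp*, which encodes bone sialoprotein, passed the test (-0.66, adjusted p = 0.0213 from edgeR). The genotypes did not overlap for *Ibsp* and *Alpl* alone. The sum of the other 6, formed after seeing the data, overlapped (356 to 464 CPM in OsxCre and 326 to 400.4 CPM in OsxCre;Stat3fl/fl). These 6 were picked because each overlapped, so the overlap of their sum is not a separate result. The summed level of 10 skeletal muscle markers was between 32289 and 36229 CPM in OsxCre and between 38822 and 57062 CPM in OsxCre;Stat3fl/fl. Of these 10, 9 were higher, 7 of them without overlap. *Myh3*, the embryonic myosin heavy chain, rose (1.71, adjusted p = 0.0204), and *Myh4*, a fast adult one, fell (-3.61, adjusted p = 3.87e-05). When muscle markers and the 50 most counted genes were left out of the scaling, the log2 fold change was -0.49 for *Serpinh1*, -0.32 for *Bmp1* and 0.34 for *Lox*. The part of the osteoblast and muscle content in these values was not tested. Summed markers of cartilage, tendon and fibrous tissue, osteoclasts, endothelium and neurons overlapped between genotypes. For cartilage they did so through OsxCre library 3 alone, at 3175 CPM against 2835 to 3593 CPM in OsxCre;Stat3fl/fl. Erythroid markers were lower in sum (2232 to 3779 against 1175 to 2083 CPM, with *Hbb-b1* at 0 counts throughout). *Hba-a1* made up most of that sum, with 2039 to 3483 against 1050 to 1879 CPM. Macrophage markers were slightly higher in sum (194 to 213 against 219 to 240 CPM), with 4 of them higher and 1 lower. *Hba-a1* and *Cd68* were the single markers of their lists without overlap. In the lists whose sums overlapped, *Ocstamp* of osteoclasts (log2 fold change 0.83, adjusted p = 0.0509 from edgeR) and *Tek* of endothelium (0.29, adjusted p = 0.227) were higher without overlap. The other markers tested in those lists overlapped. Of the markers tested, 4 of 6 for osteoclasts and 5 of 5 for endothelium had a positive log2 fold change. For cartilage these were 6 of 7, for tendon and fibrous tissue 5 of 6 and for neurons 1 of 4. The 5 keratinocyte markers summed to at most 7.21 CPM. Neuronal markers varied most, between 28.6 and 369 CPM, and were highest in OsxCre library 2 and OsxCre;Stat3fl/fl libraries 1 and 3. Without those 3 libraries the log2 fold change was -0.46 for *Serpinh1* and -0.35 for *Bmp1*, with 1 library left in OsxCre;Stat3fl/fl.

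The amount of each enzyme transcript was then set against its main substrate, as counts per 1000 counts of *Col1a1* and *Col1a2* together. This ratio is formed within a library and does not depend on the scaling. *Col1a1* and *Col1a2* had log2 fold changes of -0.14 (adjusted p = 0.75 from edgeR) and -0.18 (adjusted p = 0.621). *Lox* had 14.1, 16.8 and 16.4 counts per 1000 collagen counts in OsxCre and 22.0, 21.0 and 22.9 in OsxCre;Stat3fl/fl. The genotypes lay further apart than in CPM, with means of 15.7 ± 1.45 and 22.0 ± 0.981 (SD, n = 3) and a ratio of 1.4 between them. An exact permutation p of 0.1 (two-sided, the smallest possible here) was reached by *Lox* and also by *Plod1* and *Plod2*, among 9 genes compared and without adjustment.

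*Plod1* had 6.15 ± 0.849 and 7.59 ± 0.863 counts per 1000 collagen counts, and *Plod2* 2.85 ± 0.132 and 3.42 ± 0.474, both higher in OsxCre;Stat3fl/fl without overlap. By this measure 3 of the 9 genes were higher without overlap and 0 were lower. Of all genes tested, 13.7% were higher and 1.9% lower without overlap by this measure. *Serpinh1* had 52.1, 60.4 and 50.9 counts per 1000 collagen counts in OsxCre and 53.3, 41.5 and 35.6 in OsxCre;Stat3fl/fl. Here OsxCre;Stat3fl/fl library 1 lay within the OsxCre range, and the ratio of the means was 0.798 (exact permutation p = 0.3, two-sided). *Bmp1* had 19.9 ± 1.44 and 17.9 ± 3.71 counts per 1000, also with library 1 of OsxCre;Stat3fl/fl above the others, at 22.0. OsxCre;Stat3fl/fl library 1 was the library with the lowest CPM of both collagen genes. With all 11 fibrillar collagens of the list as the denominator, *Serpinh1* had a ratio of 0.730 and *Lox* of 1.28, and the exact permutation p was 0.1 for both and at least 0.2 for the other 7 genes.

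**Figure D3:**
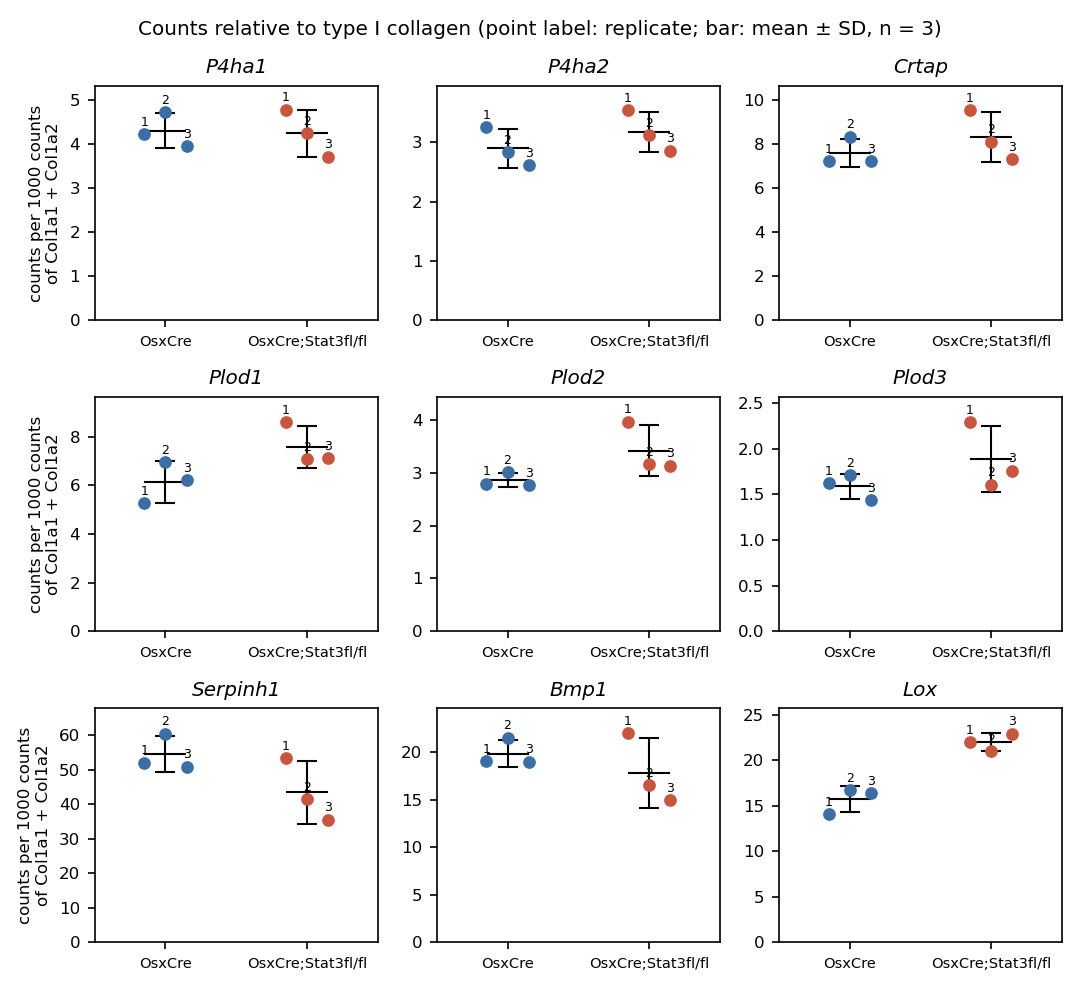
Counts of the 9 genes per 1000 counts of *Col1a1* and *Col1a2* in each library, with the replicate number beside each point and the mean ± SD of 3 libraries as bars, axes starting at 0. *Lox*, *Plod1* and *Plod2* are higher in OsxCre;Stat3fl/fl without overlap, and library 1 of OsxCre;Stat3fl/fl lies within the OsxCre range for *Serpinh1* and above it for *Bmp1*.

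The other genes of collagen biosynthesis were read from a list of 27 partners, of which 26 were tested. Of these, 21 had a negative log2 fold change, against 50.7% of all genes, and their median was -0.13. One of them, *Glt25d1* (now *Colgalt1*), passed the adjusted p of 0.05, as did 1.26% of all genes (0.481% lower). It encodes the galactosyltransferase that adds galactose to hydroxylysine, the step after the lysyl hydroxylases. It had 237, 226 and 206 CPM in OsxCre and 167, 164 and 164 CPM in OsxCre;Stat3fl/fl, so that it fell by 0.44 on the log2 scale (standard error 0.08, edgeR adjusted p = 0.0453). The OsxCre;Stat3fl/fl values were nearly equal and lay below all OsxCre values. The call was lost when any one library was left out, with adjusted p-values between 0.0535 and 0.166, and when the replicate number entered as a block (adjusted p = 0.17).

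Around the lysyl hydroxylases, *Fkbp14* and *Fkbp10* encode peptidyl-prolyl isomerases of the endoplasmic reticulum, and *Tmem38b* a potassium channel of the same compartment. *Fkbp14* had 97.9, 101 and 87.0 CPM in OsxCre and 55.8, 72.6 and 62.3 CPM in OsxCre;Stat3fl/fl, without overlap, and with the lowest log2 fold change of the 26 (-0.59, adjusted p = 0.0566 from edgeR). Its adjusted p was under 0.05 in 6 of 16 alternatives. *Fkbp10*, the most counted of this group, was lower without overlap at -0.21 (adjusted p = 0.229), and *Tmem38b* had 0.25 (adjusted p = 0.287) with overlap. *Colgalt2*, the second galactosyltransferase, was too low to be tested. In the GENCODE annotation *Fkbp10* and *Fkbp14* overlap protein-coding genes on the other strand, as do *Ppib* and *Loxl3*, and reads of such pairs cannot be told apart without strand.

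Among the prolyl hydroxylation partners, *P4hb*, the beta subunit, had 998 ± 72.1 CPM in OsxCre and 862 ± 58.2 CPM in OsxCre;Stat3fl/fl (SD, n = 3), with overlap (log2 fold change -0.21, adjusted p = 0.342 from edgeR). *Lepre1* (now *P3h1*), the catalytic partner of *Crtap*, had 179, 159 and 160 CPM in OsxCre and 131, 144 and 133 CPM in OsxCre;Stat3fl/fl. It was lower without overlap at -0.29 (adjusted p = 0.139), while *Crtap* itself overlapped at -0.03 and *Ppib*, which encodes cyclophilin B, at 0.00. The difference between the changes of *Lepre1* and *Crtap* was not tested. *Leprel2* (now *P3h3*), another prolyl 3-hydroxylase, was lower without overlap at -0.17 (adjusted p = 0.306).

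Of the export genes, *Creb3l1*, which encodes the endoplasmic reticulum transcription factor OASIS that activates *Col1a1* in osteoblasts, had 130, 133 and 110 CPM in OsxCre and 97.8, 94.5 and 87.0 CPM in OsxCre;Stat3fl/fl. It was lower without overlap (log2 fold change -0.42, adjusted p = 0.086 from edgeR). *Ctage5*, a cargo receptor gene for procollagen export, was higher without overlap at 0.23 (adjusted p = 0.192), and -0.15 without scaling. For the 7 propeptide removal partners, among them the N-propeptidase *Adamts2* (0.03) and the enhancer of *Bmp1* activity *Pcolce* (-0.18), all overlapped. The lysyl oxidase relatives *Loxl1* and *Loxl4* were lower without overlap, at -0.23 (adjusted p = 0.26) and -0.40 (adjusted p = 0.131 from edgeR), in the direction opposite to *Lox*, and *Loxl3* overlapped at -0.06. In all, 8 partners were lower and 1 higher without overlap, against 12.2% and 10.8% of all genes. By DESeq2's Wald test, *Fkbp14* (adjusted p = 0.000993), *Glt25d1* (0.000528) and *Creb3l1* (0.0176) were called lower, as were 1.51% of all genes.

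**Figure D4:**
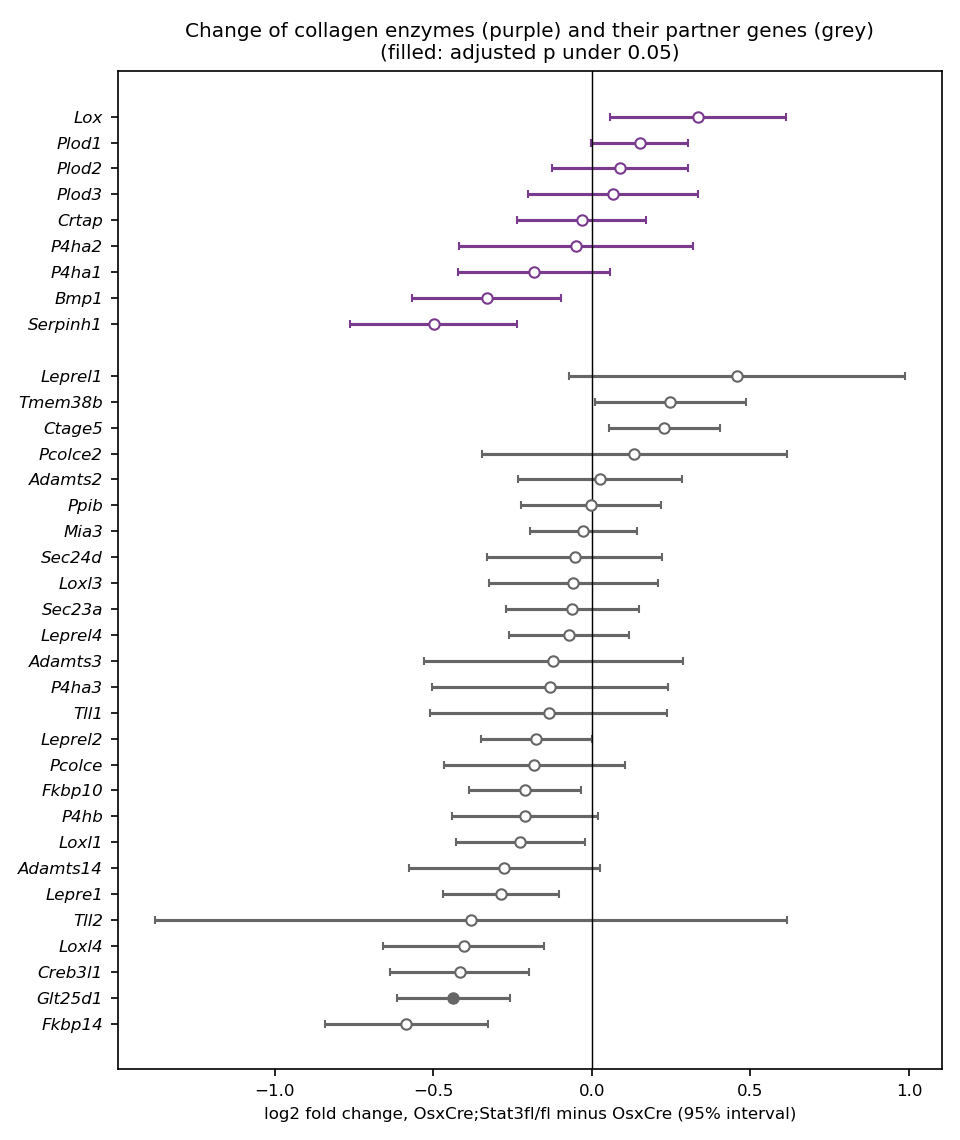
Log2 fold change of OsxCre;Stat3fl/fl minus OsxCre with its 95% interval from edgeR, for the 9 collagen enzymes in purple and 26 partner genes in grey, filled where the adjusted p was under 0.05. *Glt25d1* is the only filled point, and the intervals of *Serpinh1* and *Bmp1* lie below 0 and that of *Lox* above it.

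The reported directions held for *Serpinh1*, *Bmp1* and *P4ha1* under every one of the 16 other settings run, although the 95% interval of *P4ha1* spanned 0. Those of *Plod1*, *Plod2* and *Lox* turned only in unscaled counts, where the median of all genes was -0.38. For *P4ha2*, *Crtap* and *Plod3* the sign depended on single libraries, and their 95% intervals spanned 0.

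**Figure D5:**
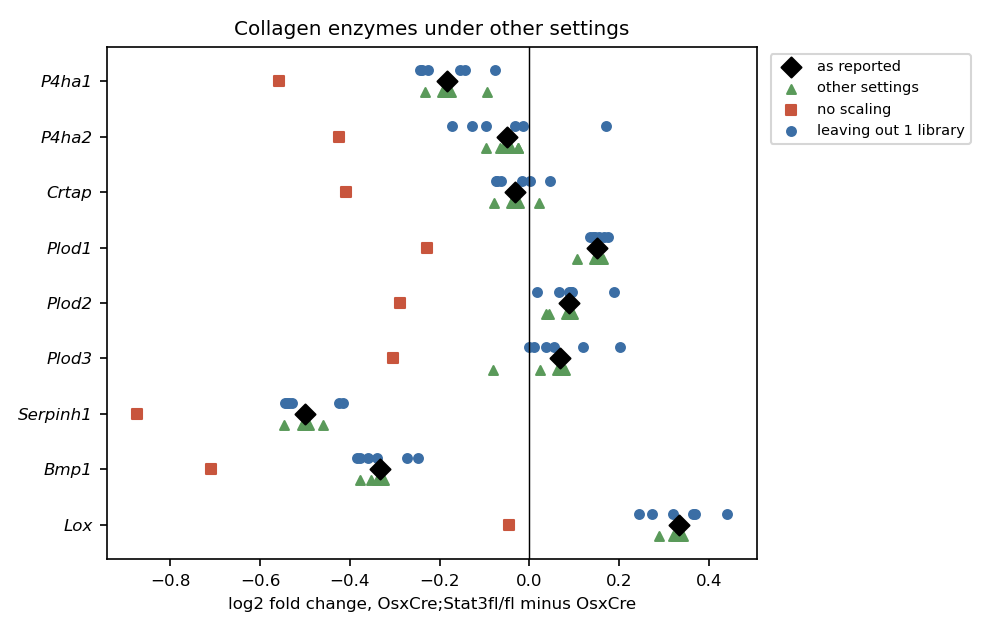
Log2 fold change of each of the 9 collagen enzymes as reported (black diamonds), with 1 library left out (blue circles), without scaling (red squares) and under the other settings (green triangles). The unscaled values lie to the left of the others for each gene, and *P4ha1*, *Serpinh1* and *Bmp1* lie below 0 throughout.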

How the data were processed

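Libraries were made from polyA RNA with an Illumina TruSeq kit, per the labels. The deposited files hold counts, whole numbers of reads per gene symbol, one file per library and without normalization. How the authors made them is described in 2 ways, since the submitters' processing notes name HISAT2 and GRCm38, while the study's methods name TopHat and mm9. The counting program, its annotation and its strand setting are not given in the sources used here, and GRCm38.p6 positions are from RefSeq. Libraries were grouped by their titles. No 2 libraries of a genotype were duplicates (chi-square per degree of freedom between 7.51 and 15.6).

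In R 4.3.3, genes were filtered with edgeR 4.0.16 (filterByExpr, minimum count 10, minimum total 15), scaled by TMM and compared by quasi-likelihood F tests, whose p-values were adjusted over 15600 genes by Benjamini and Hochberg's method. Intervals are 95% intervals from the fit's t distribution, with the standard error taken as the log2 fold change over the root of F. The fit was tested on simulated data. Alternatives used DESeq2 1.42.0, limma 3.58.1 (voom), other scalings, no filter, a replicate block and left-out libraries. Single ratios were compared by exact permutation tests over libraries. The sources do not say whether each library came from 1 animal, so p-values measure the spread between these libraries, which may be technical. Figures used matplotlib 3.10.9.

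The members and gene lists were chosen with earlier results of these data known. Genes named are the members, *Stat3*, *Col1a1*, *Col1a2*, partner and hypoxia-inducible genes that passed the test or did not overlap, the most counted gene of a partner group, and marker genes that passed. *Crtap*'s partner *Ppib*, and *Tmem38b*, *Adamts2*, *Loxl3*, *Colgalt2*, *Alpl*, *Hba-a1*, *Cd68*, *Ocstamp*, *Tek*, *Hbb-b1* and the sex-linked genes, were added after their values were seen. Protein sequences were not used here.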

Additional observations from a re-analysis of the deposited data

How the results depend on the processing

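The number of the 9 tested collagen enzymes called at an adjusted p under 0.05 was 0 in 14 of 16 alternatives, 2 with DESeq2's Wald test (*Serpinh1* and *Bmp1*) and 4 without scaling (these 2, *P4ha1* and *Crtap*). At an unadjusted p under 0.05 there were 3 as reported, 7 without scaling and 1 without the 3 libraries highest in neuronal markers, and between 2 and 3 with one library left out. The number without overlap was 4 as reported, 5 with library totals and 7 without scaling. With one library left out it lay between 4 and 7. The 7 came without OsxCre library 1, where 31.3% of all genes did not overlap. As reported, 16.4% of all genes had an unadjusted p under 0.05 and 23% did not overlap. Those shares were not taken without scaling, where the median log2 fold change of all genes was -0.38. Called partners numbered 1 as reported, 2 with library totals, 19 without scaling, 3 with no filter, 3 with DESeq2, 0 with the replicate block, 0 without the 3 libraries, 2 with the neuronal level as a covariate, and between 0 and 1 with one library left out. Of all genes, 196 were called as reported, 5572 without scaling (35.7%), 428 with no filter, 539 with DESeq2 (3.46%), 1 with the replicate block, 16 without the 3 libraries, 443 with the neuronal covariate, and between 12 and 103 with one library left out, where fewer libraries enter the test.

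Without scaling the log2 fold change turned to -0.23 for *Plod1*, -0.29 for *Plod2*, -0.30 for *Plod3*, -0.046 for *Lox*, -0.26 for *Stat3*, -0.15 for *Ctage5*, -0.081 for *Pgk1* and -0.058 for *Ndrg1*, since every OsxCre;Stat3fl/fl library was smaller. Leaving out one library gave -0.17 to 0.17 for *P4ha2* (0.17 without OsxCre library 1), -0.075 to 0.045 for *Crtap* (0.045 without OsxCre library 1) and -1.75e-05 to 0.20 for *Plod3* (the lowest without OsxCre library 3). Without the 3 libraries, *Plod3* had -0.080 and *Crtap* 0.020. The cause of the last changes was not tested. Both settings on neuronal markers were chosen after seeing the data.

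Same-numbered libraries of the genotypes were not alike, with correlations of their deviations across genes of -0.10, -0.52 and -0.09. These deviations are from means of 3 libraries and follow whatever varies most. They cannot tell whether the number marks a pairing by litter or batch. With the replicate block, the log2 fold change stayed at -0.50 for *Serpinh1* (adjusted p = 0.224 from edgeR) and -0.33 for *Bmp1* (adjusted p = 0.277). With 3 libraries a genotype, the change of *Plod1* (0.15, adjusted p = 0.311 from edgeR) was not called, and *Loxl2* was at or under the floor of 3 counts. The smallest change that could be called was not worked out. Whether depth or the way reads were counted gave the low *Loxl2* counts was not tested.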

Other observations

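A list of 20 hypoxia-inducible genes, a class to which *P4ha1*, *P4ha2*, *Plod2* and *Lox* are generally counted, was read beside the enzymes. Of the 19 tested, 13 had a positive log2 fold change, with a median of 0.24, and 5 were higher and 1 lower without overlap. Over all genes tested, 50.7% were below 0, 10.8% were higher and 12.2% lower without overlap, and 0.776% were called higher. *Egln3*, which encodes a prolyl hydroxylase of the hypoxia-inducible factor and not of collagen, rose from 39.9, 32.2 and 35.6 CPM in OsxCre to 59.6, 67.8 and 70.4 CPM in OsxCre;Stat3fl/fl (log2 fold change 0.88, adjusted p = 0.0154 from edgeR). Its adjusted p stayed under 0.05 for 5 of 6 left-out libraries, and was 0.1 without OsxCre;Stat3fl/fl library 3 and 0.0981 with the replicate block. *Mxi1*, a transcriptional repressor gene, was higher without overlap at 0.42 (adjusted p = 0.0522), as were *Ddit4* (0.84), *Ndrg1* (0.32) and *Pgk1* (0.30), and *Vegfa*, the angiogenic growth factor gene, was lower at -0.53 (adjusted p = 0.212 from edgeR) and at -0.26 without OsxCre library 3. Muscle also expresses several of these genes, and muscle markers were higher in the same libraries. Their part in these values was not tested.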
